A study of Homo sapiens with 8 samples.

Results

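The genes described here are 7 regulators of tissue-dependent splicing, RBFOX2, QKI, ELAVL1, MBNL1, MBNL2, CELF1 and MSI2, examined as RNAs that RBM45 cross-linked to. The peaks described are those that share at least 1 base with each gene's hg19 span on the gene's strand. The 7 spans add up to 1418 kb and held 641 of the 210878 peak entries of WT CLIP replicate 1, 318 of the 65587 entries of replicate 2 and 78 of the 13758 deposited pairs of overlapping peaks. An entry is 1 peak on 1 strand. The genes were chosen by name and position and not by a measured value, although earlier results of these data were known when they were set.

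HEK293T, a cell line derived from human embryonic kidney that is in wide laboratory use, was transduced with a lentivirus for human RBM45 carrying a FLAG-HA tag. RNA was cross-linked with 254 nm ultraviolet light at 300 mJ/cm2 and the tagged protein was pulled down through its HA tag (CLIP), with size-matched input RNA prepared without antibody. The 8 libraries form 4 groups of 2 replicates: WT CLIP, WT input, METTL3 knockout CLIP and METTL3 knockout input. METTL3 is the catalytic subunit of the m6A methyltransferase, and tagged RBM45 was present in every group. The values below come from the WT CLIP peak lists; input and knockout libraries were not analysed here, so neither enrichment over input nor the effect of METTL3 loss was measured. RBM45 was supplied from the lentivirus, and separate cultures are not stated for the replicates, so differences between them may be technical.

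RBM45 is an RNA-binding protein of the developing nervous system that is found in protein inclusions in amyotrophic lateral sclerosis. The 7 genes encode RNA-binding proteins whose levels or activity differ between tissues and which select exons in a position-dependent way in pre-mRNA. MBNL and CELF proteins oppose each other on many exons of heart and skeletal muscle during development, and loss of MBNL activity underlies much of the mis-splicing of myotonic dystrophy. RBFOX2 acts in muscle, neurons and the epithelial to mesenchymal transition, QKI in myelinating glia and in the formation of circular RNAs, and MSI2 in stem and progenitor cells, where it also controls translation. ELAVL1 (HuR) is the broadly expressed member of a family that is otherwise largely neuronal, and it binds U-rich elements of introns and mature mRNAs. Many regulators of this kind bind and cross-regulate each other's transcripts.

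By their point values, the 7 genes fell into 2 levels of peak density in both replicates. MSI2, CELF1, RBFOX2 and ELAVL1 carried more entries per length than MBNL1, MBNL2 and QKI. Because the lists differ 3.22-fold in length, a normalised density was used, defined as entries per 100 kb of span for every 100000 entries of the list. MSI2 had a normalised density of 42.8 in replicate 1 and 65.1 in replicate 2. CELF1 had 21.4 and 59.7, RBFOX2 had 18.7 and 34.7, and ELAVL1 had 33.2 and 22.7. MBNL2 had 7.45 and 6.21, MBNL1 had 4.06 and 8.24, and QKI had 5.78 and 5.58. The lowest value of the denser 4 genes, 18.7, lay above the highest value of the other 3, 8.24, so the levels did not overlap. Among the denser genes, MSI2 had the highest density in each list. Its range did not overlap those of RBFOX2 and ELAVL1 but overlapped that of CELF1. CELF1 lay above RBFOX2 in both lists, but their ranges overlapped, and ELAVL1 lay above both in replicate 1 and below both in replicate 2. The order of MBNL1, MBNL2 and QKI also changed from list to list. With 1 peak list per library these densities have no test. RNA levels were not measured here, so the densities are not corrected for the abundance of each RNA.

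**Figure D1:**
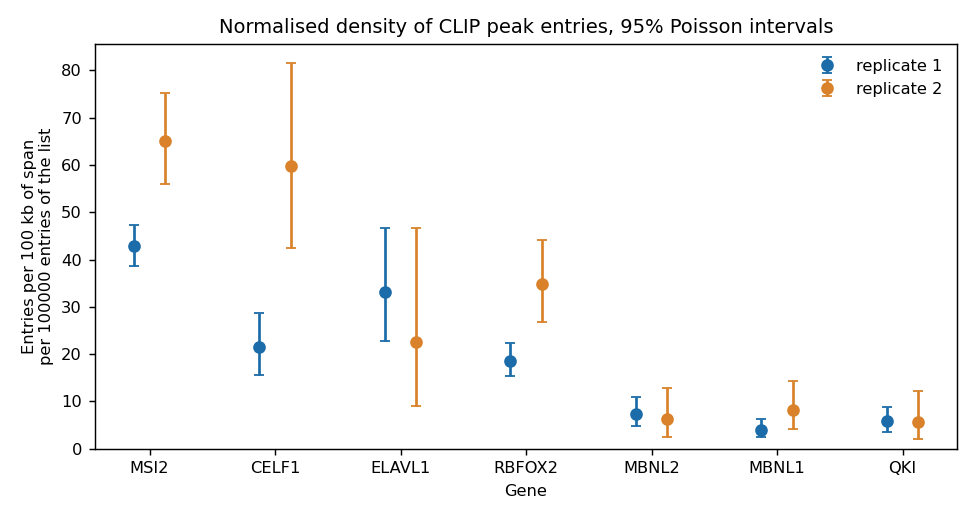
Normalised density of CLIP peak entries (entries per 100 kb of gene span per 100000 entries of the list, y axis) for the 7 genes (x axis, ordered by the mean of both replicates). Points are the single value of each replicate and bars are 95% exact Poisson intervals, which cover counting error only. The points of MSI2, CELF1, ELAVL1 and RBFOX2 lie at 18.7 or higher, and those of MBNL2, MBNL1 and QKI at 8.24 or lower. The replicate 2 interval of ELAVL1 overlaps those of MBNL2, MBNL1 and QKI.

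The same genes were set beside all 100-kb windows of 1 strand, on a fixed grid, that held at least 1 entry of either list. Such windows had a median of 5 entries in replicate 1 and 1 in replicate 2. MSI2, with 90.3 entries per 100 kb in replicate 1 and 42.7 in replicate 2, was matched or exceeded by 0.274% and 0.308% of the 20805 windows. CELF1, with 45.2 and 39.1 entries per 100 kb, was matched or exceeded by 2.66% and 0.375%. RBFOX2 (39.4 and 22.8 per 100 kb) was matched or exceeded by 3.83% and 1.75% of windows, and ELAVL1 (70.1 and 14.9) by 0.735% and 4.50%. For QKI (12.2 and 3.66) the shares were 26.1% and 25.6%, for MBNL2 (15.7 and 4.07) 20.03% and 21.0%, and for MBNL1 (8.56 and 5.41) 37.4% and 17.1%. Thus the 3 sparser genes also stood above the median occupied window. Many windows hold intergenic sequence or part of a gene, so these percentages are a description and not a comparison with other genes. The ELAVL1 span of 47.1 kb is also shorter than a window, so its 33 and 7 entries were scaled up to 100 kb.

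MSI2, a Musashi-family protein that binds RNA in stem and progenitor cells, carried most of the peaks. Its 424-kb span held 383 replicate 1 entries, 181 replicate 2 entries and 52 pairs, which is 59.8% and 56.9% of the entries of the 7 genes. Any pooled value of the 7 genes is therefore largely a value of MSI2. Its entries lay along most of the gene, with no stretch longer than 9.22 kb free of entries in replicate 1 and 26.7 kb in replicate 2. They were densest toward the start. The first 50 kb held 70 and 50 entries and 16 pairs, and the next 50 kb held 75 and 29 entries and 8 pairs. The following 50 kb held 27 and 12 entries and 2 pairs, and no pair lay between 70.2 and 140 kb from the start. Another rise followed at 150 to 200 kb, with 45 and 37 entries and 8 pairs. The shorter last stretch, from 400 to 424 kb, held 28 replicate 1 and 5 replicate 2 entries and 3 pairs.

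The strongest MSI2 peak of replicate 1 (ranked by the caller's −log10 p of 31.2) was also its first shared one, at chr17:55335887-55335920 on the plus strand, 2.68 kb from the gene's start. It had a fold enrichment over the caller's background of 13.2, and its partner at chr17:55335890-55335920 had 8.46. The strongest MSI2 peak of replicate 2 lay deep in the gene, 276 kb from the start, at chr17:55609220-55609249 with a fold of 9.87. Its replicate 1 partner, chr17:55609219-55609249, had 10.7, and the 2 peaks start 1 base apart and end at the same base. That pair had the highest lower fold of the 7 genes. Both peaks exceeded 5-fold in 8 of the 52 MSI2 pairs, against 13.9% of the deposited pairs as a whole. The widest MSI2 pair, ranked by the wider of its 2 peaks, lay at chr17:55514451-55514536. It was 86 bases wide in replicate 1 (5.82-fold) and 64 bases wide in replicate 2 (5.90-fold). It was part of 1 of 3 runs of 3 pairs with gaps of at most 1 kb. The other runs began 29.1 and 46.7 kb from the start, and no run of 3 was found in the other 6 genes. The last pair, chr17:55747929-55747970 (4.62-fold) with chr17:55747918-55747968 (3.48-fold), lay 415 kb from the start.

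**Figure D2:**
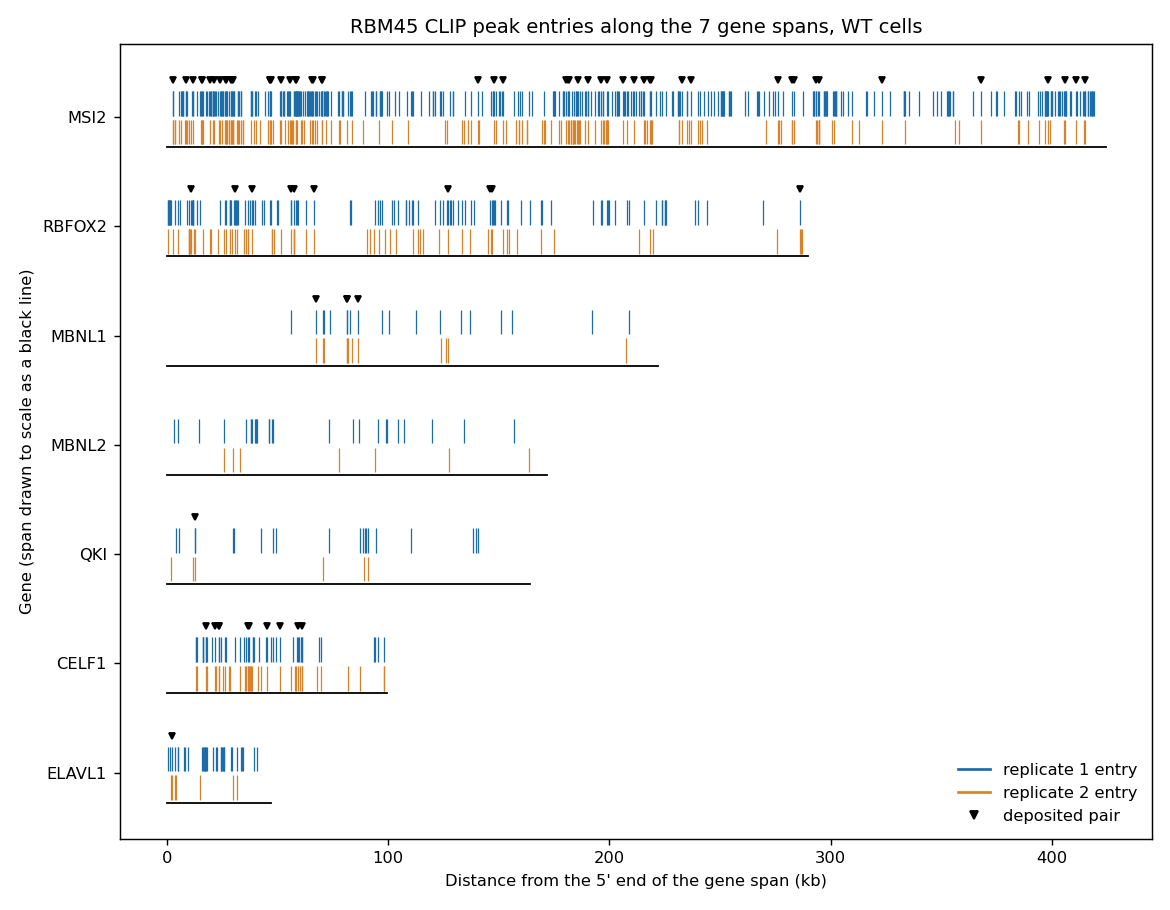
Positions of CLIP peak entries along the 7 gene spans, as distance in kb from each gene's 5′ end (x axis), with each span drawn to scale as a black line. Blue ticks are replicate 1 entries, orange ticks are replicate 2 entries and black triangles are deposited pairs. MSI2 is covered along its 424 kb, whereas MBNL1 has no entry in its first 56.3 kb and MBNL2 has no pair.

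CELF1 and the MBNL genes, whose proteins act against each other on shared exons, differed widely in peak number. CELF1, a binder of GU-rich elements, held 45 replicate 1 and 39 replicate 2 entries and 10 pairs in 99.6 kb. MBNL1 held 19 and 12 entries and 4 pairs in 222 kb, and MBNL2 held 27 and 7 entries and no pair in 172 kb. The CELF1 entries occupied the middle of its span: none lay within 13.2 kb of the start, and beyond 70.0 kb there were 4 in each list. The 10 pairs lay between 17.8 and 61.2 kb, the first at chr11:47569266-47569296 in replicate 1 (3.67-fold) and chr11:47569265-47569312 in replicate 2 (3.61-fold). The widest joined a 30-base replicate 1 peak, chr11:47541539-47541568 (2.55-fold), and a 105-base replicate 2 peak, chr11:47541536-47541640 (5.71-fold). Their folds ran from 2.22 to 5.35 in replicate 1 and from 2.19 to 6.32 in replicate 2, with medians of 3.30 and 4.91. The CELF1 pair with the highest lower fold was chr11:47550142-47550171 on the minus strand, 5.35-fold in replicate 1, with chr11:47550143-47550175, 4.91-fold in replicate 2. The strongest CELF1 peak of replicate 1, chr11:47542172-47542211 (7.64-fold, −log10 p 17.7), had no overlapping replicate 2 peak. The strongest of replicate 2, chr11:47525938-47525972 (6.32-fold), overlapped chr11:47525939-47525968 (4.34-fold), the last pair along the gene.

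MBNL1 had no entry in the first 56.3 kb of its span in replicate 1 or the first 67.5 kb in replicate 2. The 4 MBNL1 pairs lay in a stretch 67.5 to 86.3 kb from the start. The first of them was the strongest replicate 2 peak of the gene, chr3:152029124-152029155 on the plus strand. Both lists gave it the same start and end, with a fold of 6.19 in replicate 1 and 6.11 in replicate 2. The widest MBNL1 pair, chr3:152042918-152042991 (2.39-fold) with chr3:152042920-152042966 (3.52-fold), lay in a run of 2 pairs that covered 171 bases. The last MBNL1 pair, chr3:152047964-152047993, also had the same ends in both lists, with folds of 5.26 and 3.91. The strongest replicate 1 peak of MBNL1, chr3:152032172-152032206 (6.11-fold), was not matched in replicate 2. In MBNL2, the paralogue of MBNL1, none of the 7 replicate 2 entries overlapped any of the 27 replicate 1 entries. A share of 0 of 7 has an exact 95% upper limit of 41.0%, above the 28.8% of the whole replicate 2 list, so a difference was not detectable with so few entries. A replicate 2 entry in MBNL2 lay a median of 4266 bases from the nearest replicate 1 entry, against 217 bases in MBNL1 and 112 bases in CELF1. The highest MBNL2 fold was 4.42 in replicate 1 and 5.202 in replicate 2. None of its 27 replicate 1 entries exceeded 5-fold, against 9.16% of the whole list, and 1 of 7 replicate 2 entries did, against 18.0%. Its median fold in replicate 1, 3.12, equalled that of the whole list.

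RBFOX2, a regulator of muscle, neuronal and epithelial splicing, held 114 replicate 1 and 66 replicate 2 entries and 10 pairs in 290 kb. Its entries lay mostly toward the start: 57 of 114 replicate 1 and 39 of 66 replicate 2 entries fell in the first of 3 equal parts of the span, and 20 and 7 in the last. The first entries lay 0.501 and 0.436 kb from the start. Of the 10 pairs, 9 lay 11.2 to 147 kb from the start. The first was chr22:36413255-36413285 (4.66-fold) with chr22:36413253-36413284 (7.03-fold). The last, 286 kb from the start, was chr22:36138442-36138534 (2.67-fold) with chr22:36138471-36138534 (3.78-fold). Between 150 and 250 kb there were 27 replicate 1 and 9 replicate 2 entries and no pair. The pair with the highest lower fold was chr22:36277431-36277474 on the minus strand, 4.68-fold in replicate 1, with chr22:36277429-36277468, 11.03-fold in replicate 2. The latter had a −log10 p of 27.8, was the strongest replicate 2 peak of the 7 genes and ranked 175 in the whole list. The widest pair joined a 44-base replicate 1 peak, chr22:36385892-36385935 (5.54-fold), and a 100-base replicate 2 peak, chr22:36385836-36385935 (4.15-fold). The strongest replicate 1 peak, chr22:36264246-36264281 (8.33-fold), had no overlapping replicate 2 peak.

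QKI, a STAR-family protein of glial and muscle RNA processing, held 20 replicate 1 and 6 replicate 2 entries in 164 kb. Its single pair, 12.6 kb from the start, joined chr6:163848292-163848324 on the plus strand (5.54-fold), the strongest QKI peak of replicate 1, and chr6:163848295-163848324 (3.61-fold). The strongest QKI peak of replicate 2, chr6:163837460-163837490 (5.03-fold), was unmatched. No QKI entry lay within 23.4 kb of the 3′ end of the span in replicate 1 or 73.0 kb in replicate 2. By entries per 100 kb in both lists, the most alike of the 21 pairs of genes were QKI and MBNL2, which differed by 3.52 per 100 kb in replicate 1 and 0.414 in replicate 2.

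ELAVL1, which encodes HuR, is the shortest of the 7 genes at 47.1 kb. It held 33 replicate 1 entries but 7 replicate 2 entries, of which 2 overlapped replicate 1. Its single pair, 2.42 kb from the start, joined chr19:8068083-8068112 on the minus strand (3.87-fold) and chr19:8068081-8068119 (8.19-fold). The strongest ELAVL1 peak was unmatched in either direction, chr19:8040950-8040987 in replicate 1 (8.67-fold) and chr19:8055304-8055338 in replicate 2 (7.84-fold). All 7 replicate 2 entries had a replicate 1 entry within 1 kb. No entry lay within 6.31 kb of the 3′ end of the ELAVL1 span in replicate 1 or 15.1 kb in replicate 2.

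The replicates contributed unequal numbers of entries to these genes. Over the whole lists, replicate 2 supplied 23.7% of the entries of both. It supplied 46.4% in CELF1 (95% exact binomial interval 35.5 to 57.6), 36.7% in RBFOX2 (29.6 to 44.2) and 32.1% in MSI2 (28.3 to 36.1), and these intervals lay above 23.7%. In MBNL1 the share was 38.7% (21.9 to 57.8), in QKI 23.1% (8.97 to 43.6), in MBNL2 20.6% (8.70 to 37.9) and in ELAVL1 17.5% (7.34 to 32.8). Among the 2434 grid windows with at least 30 entries of both lists, the median share was 26.4% and the central 90% ran from 9.68% to 45.9%. The share of CELF1 was reached by 4.60% of windows, that of MBNL1 by 15.5%, of RBFOX2 by 19.9% and of MSI2 by 31.5%. The 6 genes other than CELF1 lay within the central 90%. The intervals treat entries as independent, although peaks of 1 library that lie close together share their RNA.

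Agreement between the replicates was asked next. Of the 318 replicate 2 entries in the 7 genes, 111 shared at least 1 base with a replicate 1 entry, or 34.9% (29.7 to 40.4), against 28.8% of the whole replicate 2 list. Without MSI2 the share was 28.5% (39 of 137, 21.1 to 36.8), which is near the share of the whole list. MSI2 itself had 72 of 181 matched, 39.8% (32.6 to 47.3). With replicate 1 cut to as many entries as replicate 2, the MSI2 share was 22.1% (40 of 181), against 18.6% of the whole list. No interval was computed for that share, so whether MSI2 differs from the list at equal length was not tested. In CELF1 13 of 39 were matched, or 33.3% (19.1 to 50.2), and in RBFOX2 18 of 66, or 27.3% (17.03 to 39.6). MBNL1 had 5 of 12, ELAVL1 2 of 7 and QKI 1 of 6, with intervals that included 28.8%. The stricter deposited pairs, in which the shared bases cover at least 50% of the replicate 1 peak, took in 24.5% of the replicate 2 entries of the 7 genes (against 20.9% of the whole list) and 12.2% of their replicate 1 entries (against 6.52%). Without MSI2 these were 18.98% and 10.1%. Counted from replicate 1, 111 of 641 entries were matched, or 17.3% (14.5 to 20.5), against 8.88% of the whole list. There the share was 14.7% without MSI2 (10.6 to 19.7), 28.9% in CELF1 (16.4 to 44.3), 19.1% in MSI2 (15.2 to 23.4) and 14.9% in RBFOX2 (8.93 to 22.8). In MBNL1 5 of 19 were matched, or 26.3% (9.15 to 51.2). The intervals of CELF1, MSI2, RBFOX2 and MBNL1 lay above 8.88%. Below the share of the whole list lay ELAVL1 with 2 of 33 (6.06%), QKI with 1 of 20 and MBNL2 with 0 of 27, with intervals that included 8.88%. CELF1, MSI2 and RBFOX2 were also the 3 genes with the most replicate 2 entries per 100 kb. MBNL1 was not among them, with 5.41 replicate 2 entries per 100 kb. MSI2 had the most replicate 1 entries per 100 kb as well. The part of these densities in the matched shares was not tested.

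**Figure D3:**
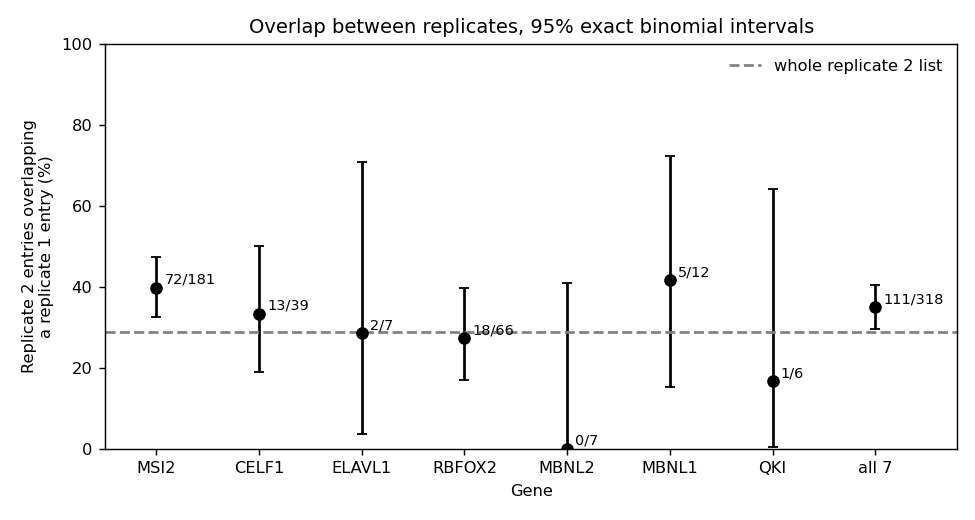
Percent of replicate 2 entries that share at least 1 base with a replicate 1 entry on the same strand (y axis), for each gene and for the 7 together (x axis). Bars are 95% exact binomial intervals, labels give matched and total entries, and the dashed line is the whole replicate 2 list at 28.8%. With both lists at full length, the MSI2 interval, 32.6 to 47.3%, lies above the line, while the intervals of the other 6 genes include it.

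The median fold of the entries in the 7 genes was 3.59 in replicate 1 and 3.88 in replicate 2, against 3.12 and 3.81 in the whole lists. Entries above 5-fold numbered 98 of 641 in replicate 1 (15.3%, against 9.16% of the whole list) and 65 of 318 in replicate 2 (20.4%, against 18.0%). Without MSI2 these were 30 of 258 (11.6%) and 23 of 137 (16.8%). Over the 78 pairs the median fold was 3.997 in replicate 1 and 4.12 in replicate 2, against 4.11 and 4.23 over all deposited pairs. In 72 of 78 pairs the replicate 1 and replicate 2 folds differed by no more than a factor of 2 (92.3%, against 90.5% of all pairs). The 6 exceptions were 2 pairs each in RBFOX2 and CELF1 and 1 each in ELAVL1 and MSI2. Both peaks exceeded 5-fold in 9 of the 78 pairs, 8 in MSI2 and 1 in MBNL1, against 13.9% of all deposited pairs. The midpoints of paired peaks were a median of 5 bases apart.

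**Figure D4:**
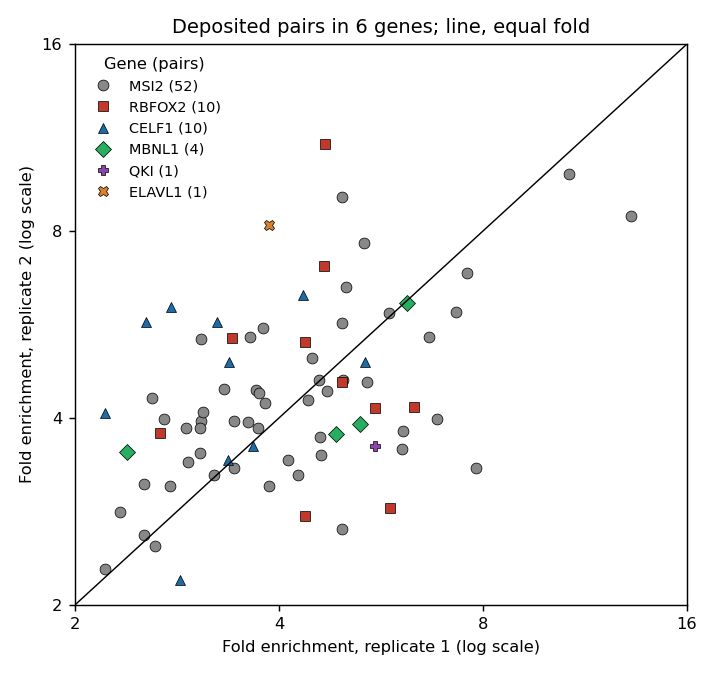
Deposited fold enrichment of the 78 pairs in 6 genes, with replicate 1 on the x axis and replicate 2 on the y axis (both log scale). Each point is 1 pair, symbols mark genes, and the line marks equal fold. Folds run from 2.22 to 13.2 in replicate 1 and from 2.19 to 11.03 in replicate 2.

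The last part of the spans, toward the 3′ end, held the fewest peaks. Of all entries in the 7 genes, 43.5% of replicate 1 and 48.7% of replicate 2 lay in the first of 3 equal parts of their span, 34.3% and 37.4% in the middle and 22.2% and 13.8% in the last. Without MSI2 the last part held 16.7% and 12.4%. In replicate 1 the last part held the fewest entries in each of the 7 genes. In replicate 2 it did so in 5 genes and tied with the middle part in ELAVL1 and MBNL2. In ELAVL1 the middle part held 18 of 33 replicate 1 entries, but the first part held 5 of 7 replicate 2 entries. The middle part held the most entries in both lists in MBNL1 (10 of 19 and 8 of 12) and in CELF1 (22 of 45 and 20 of 39, against 17 and 13 in the first part). No other genes of hg19 were placed here, so whether this gradient differs from that of other transcripts was not measured, and exons, introns, untranslated regions and the bases under the peaks were not analysed here.

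Entries also sat close together. Of the replicate 1 entries in the 7 genes 76.6% had another within 1 kb, against 55.0% of the whole list, and of the replicate 2 entries 66.7%, against 43.4%. A neighbour within 1 kb is more likely where entries are dense, so this contrast is not separate from the densities above. Whether entries sat closer than their density alone would give was not tested. In MSI2 the share was 85.1% and 77.3%, in ELAVL1 81.8% and 57.1%, in CELF1 73.3% and 74.4%, and in RBFOX2 68.4% and 48.5%. It was lower in QKI, with 10 of 20 and 2 of 6 entries, in MBNL2, with 13 of 27 and 0 of 7, and in MBNL1, with 4 of 19 and 5 of 12. The shares kept the order of density among the denser 4 genes in replicate 1, but not in replicate 2, and not among the other 3 genes in either list. Of the 78 pairs, 33 lay in 15 runs of 2 or more pairs with gaps of at most 1 kb, 10 of those runs in MSI2, 2 each in RBFOX2 and CELF1 and 1 in MBNL1. The share of all deposited pairs that lie in such runs was not computed, so 33 of 78 has no background here.

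Few entries lay just outside the spans. The labels do not state how strands were assigned to peaks or whether the lists were limited to annotated genes, so empty flanks are not read here as absence of binding. Within 20 kb outside the 7 spans, the 2 lists held 5 and 1 entries on the genes' strands, 4 and 1 of them downstream of ELAVL1. For MSI2 the nearest entry outside the span on its strand was 140 kb away in each list, and for RBFOX2 131 and 211 kb. The outermost entries lay 2.68 kb inside the MSI2 span and 0.501 and 0.436 kb inside the RBFOX2 span. In MBNL1 they lay 13.01 and 14.6 kb inside. For CELF1 the nearest outside entry on its strand was 10.9 kb away in replicate 1 and 44.6 kb in replicate 2, while its first entries lay 13.2 and 13.3 kb inside the start.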

How the data were processed

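Both WT CLIP peak lists and the list of their overlapping pairs were read as deposited (hg19). The submitters' processing notes name bedtools 2.25.0, MACS2 2.1.1.20160309 and Novoalign 3.09.00 among other tools, without roles. The authors called peaks per library at a p of 0.005, per the peak names. The caller's control was not given in the sources used here. Deposited scores are the −log10 p times 10, without decimals; the authors' fold (a ratio to the caller's background) and unadjusted −log10 p belong to single peaks. The depth of each list is unknown. A table of 8 count columns whose names match no sample label was not used, so the planned edgeR test of knockout against wild type was not run.

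Rows that repeat a peak on a strand were counted as 1 entry, and positions were counted from 1. Shares carry 95% Clopper-Pearson intervals and counts 95% exact Poisson intervals, covering counting error only. Peaks of 1 library are not replicates, so no test was made between genes. Named peaks were, per gene, the strongest of each list and the pair with the highest lower fold, the widest, the first and the last pair, and runs of 3 pairs. The widest pair was the one holding the widest single peak. Alternatives were other minimum overlaps, stronger or fewer peaks, strand ignored, other span rules, rows as deposited and each gene or replicate left out. The overlap count was tested on simulated data. The genes and these choices were set with earlier results of these data known. Scripts used scipy 1.17.1, pandas 2.3.3, numpy 2.4.6 and matplotlib 3.10.9 under Python 3.11.15, and bedtools 2.31.1 in the check.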

Additional observations from a re-analysis of the deposited data

How the results depend on the processing

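The pooled share of matched replicate 2 entries, 34.9%, was 22.6% with at least 50% of both peaks shared (19.6% in the whole list), 24.5% with at least 50% of the replicate 1 peak (20.9%) and 22.01% with replicate 1 cut to as many entries as replicate 2 (18.6%), where fewer pairs can qualify. It was 28.5% without MSI2, 35.0% in the stronger 50% of each list (33.1% in the whole list) and 34.6% to 36.9% with any other gene left out. In MSI2 alone, 39.8% became 26.5% with at least 50% of both peaks shared and 28.7% with at least 50% of the replicate 1 peak. It became 22.1% with replicate 1 cut and 38.5% in the stronger 50%, against the same whole-list shares. Above 5-fold, 98 replicate 1 entries, 65 replicate 2 entries and 9 pairs were left. The stronger 50% of each list kept 203 replicate 2 entries, and counting rows as deposited gave 1407 and 706. The span rules and ignoring strand left the main counts of entries and pairs identical. The opposite-strand entries were peaks also listed on the MSI2 strand, so ignoring strand could not add a peak. Counts within 1.5 times the main value were labelled as not moved. Of 161 gene-level values recomputed, 46 were labelled as moved and 115 as not moved, but this tally does not measure stability. Many of the 115 were counts that the span rules and ignoring strand left identical. They also include shares that changed on few entries. The ELAVL1 share went from 2 of 7 to 1 of 7 with at least 50% of both peaks shared. The QKI share went from 1 of 6 to 1 of 2 in the stronger 50%. With 1 replicate left out, densities were those given for the other. No paired analysis was possible because no count column could be tied to a sample. Few entries limit ELAVL1, QKI, MBNL1 and MBNL2 in replicate 2, and fold values say nothing of depth.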

Other observations

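The number of deposited rows per peak was constant over long stretches of each gene, and the stretches of both lists matched in order and row number. In RBFOX2 each peak had 2 rows up to 175 kb from the start and 6 rows from 193 kb onward. In CELF1 it had 1 row up to 41.2 kb, 2 rows from 41.8 to 70.0 kb and 5 rows from 81.9 kb. In MSI2 it had 2 rows up to 375 kb and 1 row from 378 kb onward. Each peak had 7 rows in MBNL1, 4 in QKI, 2 in MBNL2 and 1 in ELAVL1. The sources used here do not say how rows and strands were assigned to peaks.

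The opposite strand of the 7 spans held 0 entries in 6 genes in replicate 1 and in 7 genes in replicate 2. The 7 opposite-strand entries of replicate 1 lay in MSI2, and each was also listed on the MSI2 strand, so none was particular to the opposite strand. They lay in a group 267 to 268 kb from the start and another 346 to 352 kb from it, with folds of 2.34 to 6.74, and none overlapped a replicate 2 entry. GENCODE's GRCh38 annotation places 2 antisense genes over MSI2, AC007431.1 and AC007431.2, and 2 protein-coding genes, NDUFS3 and PTPMT1, on the strand opposite CELF1, where no entry was listed.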
